A study of Mus musculus with 12 samples.

Results

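The genes described here are used to recognise the macrophages of bone marrow: C1qa, C1qb and C1qc, which encode the 3 chains of complement component C1q, the receptor gene Csf1r, the surface and lysosomal genes Adgre1, Vsig4, Cd163 and Cd68, and Ptprc, which encodes the pan-leukocyte antigen CD45. They are a named list of 9 genes, and all 9 are among the 17362 genes of the deposited expression table. Messenger RNA was sequenced in bulk from 4 populations sorted from crushed tibia, femur and iliac bone of untreated B6 mice, with 3 libraries each. CD200-high capillary cells were sorted as CD200Hi Sca1+ CD31+ EMCN- CD45-, type H vessel cells as EMCN+ Sca1+ CD31+ CD45-, arterial cells as CD200- Sca1+ CD31+ CD45-, and sinusoidal cells as CD31+ Sca1+ CD45-. All 4 gates therefore took CD31+ Sca1+ cells without CD45 on the surface, and the labels give no treatment and no mutation for any group. The labels state that 6 mice gave the biological triplicates. The mice's age is not in the labels.

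C1q is the recognition unit of the classical complement pathway. Its chains assemble as A, B and C trimers into a bouquet-shaped molecule that binds immune complexes and dying cells, and most C1q in tissues comes from macrophages rather than from the liver. CSF1R is the receptor for CSF1 and IL-34, on which most tissue macrophages depend for survival. In marrow, macrophages line vessels, form the centre of erythroblastic islands, engulf expelled red-cell nuclei and aged neutrophils, and recycle iron; CD163 takes up haemoglobin bound to haptoglobin, VSIG4 is a receptor for complement C3 fragments, ADGRE1 is the F4/80 antigen, and CD68 is a lysosomal glycoprotein. CD45 is a tyrosine phosphatase on leukocytes of every lineage and is the antigen that each gate here selected against.

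The libraries held between 7.33 M and 21.6 M listed reads. The deposited values are log2 CPM (counts per 1000000 reads), and whole reads could be recovered from them in all 12 libraries, so that a gene without a read can be told from a gene with few; 3 reads in a library are taken as its floor. Transcripts of the sorting antigens did not follow every gate. Emcn averaged 8.26 ± 0.42 log2 CPM in CD200-high cells, sorted as EMCN-, and 9.02 ± 0.03 in type H cells, sorted as EMCN+. Cd200 averaged 7.68 ± 0.11 in arterial libraries, sorted as CD200-, 7.80 ± 0.32 in type H cells and 9.81 ± 0.02 in CD200-high cells. Ly6a set the libraries labelled sinusoidal apart: this gene, which encodes Sca1, averaged 10.19 ± 0.35 log2 CPM in CD200-high cells, 8.92 ± 0.39 in type H cells and 9.78 ± 0.13 in arterial libraries, and 4.05 ± 0.71 in those labelled sinusoidal (SD, n = 3 each), against their Sca1+ label. Cdh5, the endothelial cadherin, averaged -0.47 ± 0.95 log2 CPM there, and 16 endothelial genes together took only 0.0367 to 0.0395% of the reads, against 0.303 to 0.597% in CD200-high cells, 0.910 to 0.966% in type H cells and 0.185 to 0.245% in arterial libraries. Their gate as written also contains the other 3. Results that involve the libraries labelled sinusoidal are therefore given by that label, and every direction was also read on a second scale on which each library is shifted to the same median of the 16 endothelial genes, called the endothelial scale below. That scale moves every log2 difference of CD200-high minus type H by 0.75, of CD200-high minus arterial by -1.46, and of CD200-high minus sinusoidal by -5.02. It moves those of type H minus arterial by -2.21, of type H minus sinusoidal by -5.77 and of arterial minus sinusoidal by -3.56.

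Of the 9 genes, 8 were higher in each of the 3 arterial libraries than in any of the 9 others, all but Cd163; on the endothelial scale none was. Among all 17086 genes tested, 4.28% had their 3 arterial values above the 9 others, and 0.995% had so on the endothelial scale. By the moderated F-test of limma for any difference among the 4 populations, 6 of the 9 genes passed an adjusted p of 0.05 (Benjamini-Hochberg over all tested genes), namely C1qa, C1qb, Cd68, Vsig4, Cd163 and Ptprc, where 37.4% of all genes passed. The adjusted p was 0.000111 for Ptprc, 0.000902 for C1qb and 0.00135 for C1qa, and 0.0677, 0.0854 and 0.132 for C1qc, Adgre1 and Csf1r, which did not pass. In bulk libraries such as these, fewer cells of a type and less RNA per cell cannot be told apart.

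**Figure D1:**
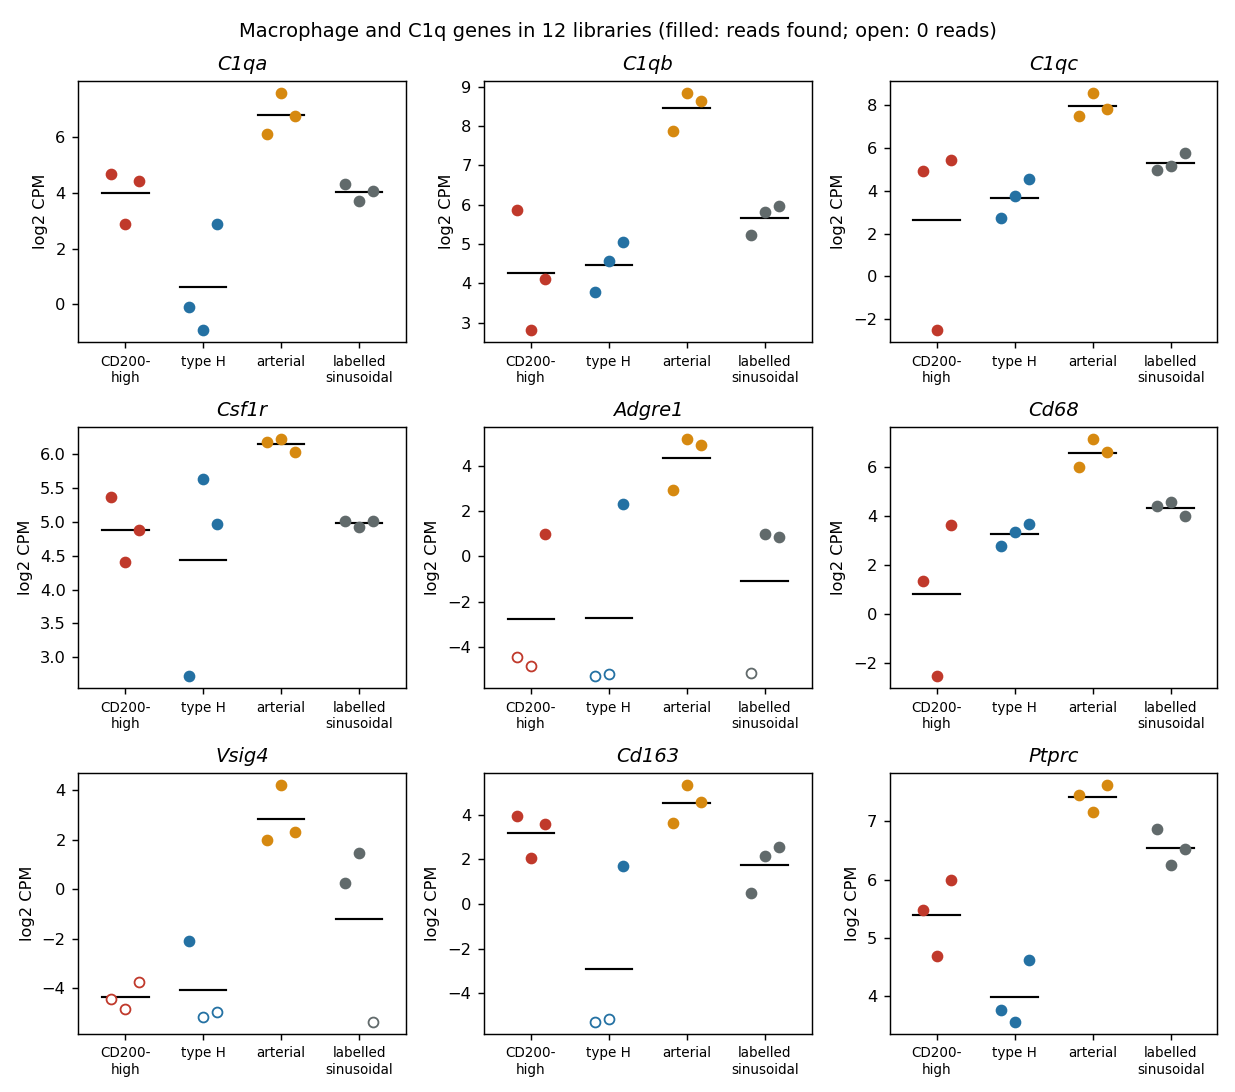
Level of each of the 9 genes in log2 CPM (vertical axis, one scale per panel) in the 3 libraries of each population; filled points have reads, open points have 0 reads, and bars are means. The arterial points lie above all others for every gene but Cd163, as deposited; on the endothelial scale this holds for none of them.

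The promoters of 5 genes of the set are printed so that the 2 C1q chains found in the promoter table can be set beside other macrophage genes. Of these 5, C1qb, C1qc, Cd68 and Vsig4 have a match to the motif below and Cd163 has none. The 5 were chosen with the matches in view. Sequences are RefSeq promoters of GRCm38.p6, from 250 bases before to 50 bases after the start of the gene, written 5′ to 3′, on the minus strand except for Cd163: C1qb at chr4:136886151-136886450, C1qc at chr4:136892865-136893164, Cd68 at chr11:69666121-69666420, Vsig4 at chrX:96293389-96293688 and Cd163 at chr6:124304401-124304700. Capitals mark the letters GAGGAA, or TTCCTC where they lie on the other strand, a core bound by PU.1, the transcription factor that macrophages and B cells need to form.
C1qb: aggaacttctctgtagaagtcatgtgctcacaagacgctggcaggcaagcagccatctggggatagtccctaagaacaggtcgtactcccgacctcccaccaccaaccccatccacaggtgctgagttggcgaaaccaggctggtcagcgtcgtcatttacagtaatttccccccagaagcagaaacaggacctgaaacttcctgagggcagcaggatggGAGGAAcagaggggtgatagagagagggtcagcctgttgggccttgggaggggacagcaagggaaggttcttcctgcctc
C1qc: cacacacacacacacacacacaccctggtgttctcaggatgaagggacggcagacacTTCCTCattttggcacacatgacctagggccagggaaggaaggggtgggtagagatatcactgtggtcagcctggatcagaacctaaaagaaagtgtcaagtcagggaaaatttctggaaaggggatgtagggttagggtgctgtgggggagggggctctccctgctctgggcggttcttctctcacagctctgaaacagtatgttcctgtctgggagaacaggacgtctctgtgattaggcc
Cd68: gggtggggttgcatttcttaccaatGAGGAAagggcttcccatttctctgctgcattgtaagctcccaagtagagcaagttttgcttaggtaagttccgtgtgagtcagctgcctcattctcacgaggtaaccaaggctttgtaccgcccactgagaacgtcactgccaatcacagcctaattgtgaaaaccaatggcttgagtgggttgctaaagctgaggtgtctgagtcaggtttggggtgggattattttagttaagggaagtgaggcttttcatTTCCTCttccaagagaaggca
Vsig4: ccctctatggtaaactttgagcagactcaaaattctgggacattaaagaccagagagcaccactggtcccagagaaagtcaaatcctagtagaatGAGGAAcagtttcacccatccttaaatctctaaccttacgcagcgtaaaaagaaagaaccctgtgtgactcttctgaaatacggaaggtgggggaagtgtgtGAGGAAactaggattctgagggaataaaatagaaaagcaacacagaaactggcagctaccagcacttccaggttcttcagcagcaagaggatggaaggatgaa
Cd163: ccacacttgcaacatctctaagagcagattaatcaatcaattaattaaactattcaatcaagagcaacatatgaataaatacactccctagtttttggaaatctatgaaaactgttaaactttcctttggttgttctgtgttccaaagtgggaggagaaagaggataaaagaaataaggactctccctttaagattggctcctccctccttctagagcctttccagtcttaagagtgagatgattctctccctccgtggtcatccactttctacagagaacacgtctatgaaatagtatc
The match lies 30 bases before the start site in C1qb and 193 bases before it in C1qc. Cd68 has 2 matches and Vsig4 has 2. Of the 6 genes of the set found in the promoter table, 5 have a match in at least 1 of their promoters, Ptprc in 1 of its 2 and Cd163 in none, while 28.3% of all 32851 promoters of the same length have at least 1 and 4.82% have at least 2. The letters TGCTGA, the core of sites bound by MAF factors, occur on either strand in C1qb and Vsig4 and in 19.5% of all promoters, and TGAGTCA, an AP-1 site, occurs at 2 places in Cd68 and in 5.2% of all promoters. Both strands were searched for each motif, and no matches overlapped in the printed sequences. The motifs were chosen with the sequences in view, and a match is only a match of letters. RefSeq places C1qb, C1qc and C1qa side by side on chromosome 4 with no other coding gene between them.

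C1qb, the B chain, was the most abundant of the 9 genes per kilobase of exon (GENCODE vM21) in each type H and arterial library and in each library labelled sinusoidal. It averaged 25.2 CPM per kilobase in CD200-high cells, 21.7 in type H cells, 337 in arterial and 47.9 in libraries labelled sinusoidal. The CD200-high mean rests on replicate 1, at 53.3 CPM per kilobase. Without it C1qb averaged 11.1 there and C1qa 13.8. As log2 CPM its level was 5.86, 2.80 and 4.12 in the 3 CD200-high libraries, 3.79, 4.57 and 5.06 in type H cells, 7.88, 8.85 and 8.65 in arterial, and 5.23, 5.81 and 5.97 in those labelled sinusoidal. The arterial libraries were the highest and overlapped no other population, while the CD200-high libraries overlapped both type H and the sinusoidal label. C1qb was lower in CD200-high than arterial libraries by a log2 difference of -4.20 ± 0.63 (SE; 18.4-fold lower, adjusted p = 0.00152) and lower in type H than arterial libraries by -3.99 ± 0.63 (15.9-fold, adjusted p = 0.00106, limma), and both calls held in all 21 alternative settings. It was higher in arterial libraries than in those labelled sinusoidal by 2.79 ± 0.63 (adjusted p = 0.0151), but by -0.77 on the endothelial scale, that is, lower. The call also ended without arterial replicate 2 (adjusted p = 0.0661), arterial replicate 3 (0.0648) or sinusoidal replicate 1 (0.06), with a range of 0.000762 to 0.31 over the alternatives. Among the 9 genes, C1qb alone was called higher in arterial libraries than in each of the other 3 populations.

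C1qa, the A chain, was lowest in type H. Its level was 4.68, 2.87 and 4.42 log2 CPM in CD200-high cells, -0.07, -0.92 and 2.89 in type H cells, 6.08, 7.56 and 6.73 in arterial, and 4.3, 3.70 and 4.05 in libraries labelled sinusoidal. Every arterial library exceeded every other library, 2 of the 3 type H libraries lay below all others, and the third type H library reached the lowest CD200-high library. C1qa was lower in type H than arterial libraries by -6.16 ± 0.87 (71.4-fold, adjusted p = 0.000516, limma), a call kept in all 21 alternatives. It was also lower in type H than in libraries labelled sinusoidal (-3.39 ± 0.87, adjusted p = 0.012), although not when only those 2 populations were fitted (0.0507) or with voom weights (0.0824; range 2.59e-07 to 0.0824). It was higher in CD200-high cells than in type H by 3.36 ± 0.87 (adjusted p = 0.0253), and this call ended in 6 of 21 alternatives, among them without CD200-high replicate 1 (0.0815), CD200-high replicate 3 (0.066), type H replicate 1 (0.0809) or type H replicate 2 (0.0725), over a range of 0.00142 to 0.19. Against arterial, the CD200-high difference of -2.80 ± 0.87 missed the threshold (adjusted p = 0.0571; 0.0302 without type H replicate 2, 0.011 without type H replicate 3, range 0.00326 to 0.178). Arterial minus sinusoidal was 2.77 (adjusted p = 0.0694; 0.0372 and 0.0126 without type H replicate 2 or 3, range 0.00362 to 0.437; the difference is -0.79 on the endothelial scale).

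C1qc, the C chain, was read at 4.92, -2.53 and 5.46 log2 CPM in CD200-high cells, 2.71, 3.77 and 4.58 in type H cells, 7.51, 8.59 and 7.84 in arterial, and 5.0, 5.15 and 5.79 in libraries labelled sinusoidal. CD200-high replicate 2 stood apart with 2 reads, against 326 and 298 in its group's other libraries. C1qc was lower in CD200-high than arterial libraries by -5.36 ± 1.58 (adjusted p = 0.0456, limma), but 12 of 21 alternatives ended the call, over a range of 0.00356 to 0.125, among them the fit with the mouse number as a block (0.0511) and leaving out any 1 library of type H (0.0538 to 0.0564), arterial (0.0975 to 0.125) or the sinusoidal label (0.0625 to 0.0632). Without CD200-high replicate 2 the difference was -2.79 (adjusted p = 0.00789). In the same fit, with the spread no longer widened by that library, type H was lower than arterial by -4.29 (adjusted p = 0.000172, against 0.0773 with all libraries), type H was lower than the libraries labelled sinusoidal (0.022, against 0.494), and arterial was higher than the libraries labelled sinusoidal by 2.66 (0.00427, against 0.356; the difference is -0.90 on the endothelial scale).

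Summed over the 3 chains, C1q transcripts took 0.00131 to 0.00972% of the listed reads in CD200-high cells, 0.00205 to 0.00618% in type H cells, 0.0501 to 0.108% in arterial and 0.00963 to 0.015% in libraries labelled sinusoidal. Among arterial libraries the share was 0.108% in replicate 2, 0.0725% in replicate 3 and 0.0501% in replicate 1, and the lowest share of all 12 was in CD200-high replicate 2. The mean proportions of the chains in the arterial libraries lay within 1 SD of those in the libraries labelled sinusoidal. The log2 ratio of C1qb to C1qa was 0.27 ± 0.80 in CD200-high cells, 3.84 ± 1.66 in type H cells, 1.67 ± 0.34 in arterial and 1.65 ± 0.63 in libraries labelled sinusoidal (SD, n = 3 each). The log2 ratio of C1qb to C1qc was 1.64 ± 3.39 in CD200-high cells, 0.78 ± 0.30 in type H cells, 0.48 ± 0.30 in arterial and 0.36 ± 0.26 in libraries labelled sinusoidal. The CD200-high mean rests on replicate 2, at 5.33, where C1qc had 2 reads, under the floor. Without that library it is -0.20. These ratios do not depend on the choice of scale, and their differences were not tested. Type H replicate 2 had the highest ratio of C1qb to C1qa, at 5.49, and CD200-high replicate 3 the lowest, at -0.31. The type H ratios rest on few C1qa reads, with 18, 9 and 114 in replicates 1, 2 and 3.

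**Figure D2:**
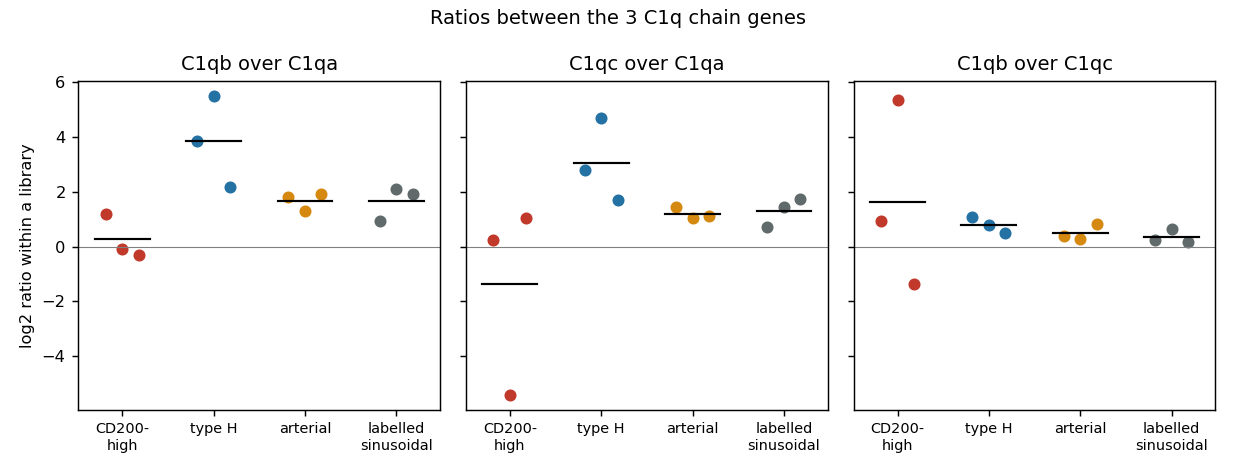
Log2 ratios between pairs of C1q chain genes within each library (vertical axis) for the 4 populations; points are libraries and bars are means. Arterial libraries lie between 1.29 and 1.92 for C1qb over C1qa, type H libraries between 2.17 and 5.49, and 1 CD200-high library stands apart in both panels with C1qc.

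Csf1r, the receptor for CSF1 and IL-34, had the narrowest span of population means among the 9 genes. It was at 5.36, 4.41 and 4.89 log2 CPM in CD200-high cells, 2.72, 5.64 and 4.97 in type H cells, 6.18, 6.23 and 6.04 in arterial, and 5.02, 4.92 and 5.01 in libraries labelled sinusoidal. The arterial libraries were highest without overlap, and type H replicate 1 was the lowest library by far. None of the 6 comparisons passed: the differences from arterial were -1.26 ± 0.58 for CD200-high (95% interval -2.61 to 0.09, adjusted p = 0.19) and -1.71 ± 0.58 for type H (-3.05 to -0.36, adjusted p = 0.0599), and arterial minus sinusoidal was 1.16 ± 0.58 (adjusted p = 0.269, limma; -2.39 with adjusted p = 0.00573 on the endothelial scale). On the endothelial scale 71.1% of all tested genes were lower in arterial minus sinusoidal. Without type H replicate 1, CD200-high was called lower than arterial (adjusted p = 0.0197; range over alternatives 0.00741 to 0.365) and arterial higher than the libraries labelled sinusoidal (0.0327; range 0.00548 to 0.444), and without type H replicate 2, type H was called lower than arterial (0.0142; range 0.000356 to 0.135). An exon of Hmgxb3 overlaps Csf1r on the opposite strand and the strand of counting is not stated, so its reads are uncertain to that extent. Relative to Csf1r, C1qb stood at log2 ratios of -0.63 ± 1.06 in CD200-high cells, 0.03 ± 1.07 in type H cells, 2.31 ± 0.53 in arterial and 0.69 ± 0.41 in libraries labelled sinusoidal. The arterial ratios, 1.70 to 2.62, lay above those of all other libraries, of which the highest was 1.06 in type H. Ratios of the other populations overlapped one another, and the differences were not tested.

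Adgre1 and Vsig4 were found mainly in the arterial libraries. Adgre1 had 0, 0 and 13 reads in CD200-high cells, 0, 0 and 76 in type H cells, 128, 592 and 282 in arterial, and 0, 49 and 37 in libraries labelled sinusoidal. Each of the other populations thus had at least 1 library without a read, while no arterial library had fewer than 128. The log2 difference from arterial was -7.11 ± 2.41 for CD200-high (adjusted p = 0.0774) and -7.06 ± 2.41 for type H (0.0587, limma), both short of the threshold. With the mouse number as a block they passed, at 0.0286 for CD200-high and 0.0201 for type H. They also passed without CD200-high replicate 3 (0.0395 and 0.0463) or type H replicate 3 (0.0409 and 0.0138), and the type H difference without sinusoidal replicate 1 (0.0461), over ranges of 0.00691 to 0.187 and 0.00299 to 0.173. Arterial minus sinusoidal was 5.45 ± 2.41 (0.203; 1.89 on the endothelial scale). Fitted differences at 0 reads depend on the 0.5 read added before the logarithm.

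Vsig4 had no read in any CD200-high library, 4, 0 and 0 reads in type H cells, 65, 300 and 46 in arterial, and 21, 68 and 0 in libraries labelled sinusoidal. Set against the floor of 3 reads per library, its mean of 9.13 CPM in arterial libraries makes it at least 29.5-fold lower in CD200-high. The fitted log2 difference, which depends on the 0.5 read added before the logarithm, was -7.18 ± 1.69 (adjusted p = 0.017, limma). Leaving out arterial replicate 2, the library with 300 reads, ended this call (0.0592; range over alternatives 0.00361 to 0.0592). The bound without it is at least 14.2-fold, from an arterial mean of 4.38 CPM. Vsig4 was lower in type H than arterial libraries by -6.91 ± 1.69 (adjusted p = 0.0133), a call kept in all 21 alternatives. The size of this difference ran from -9.12 to -2.96 over them. Arterial minus sinusoidal was 4.04 ± 1.69 (adjusted p = 0.176; 0.48 on the endothelial scale). Without sinusoidal replicate 3, the one without a read, Vsig4 was called lower than in libraries labelled sinusoidal in CD200-high (0.0215; range 0.000925 to 0.509) and in type H (0.0253; range 0.000536 to 0.599).

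Cd163, the haemoglobin-haptoglobin receptor, was also highest on average in arterial libraries as deposited. For Cd163 alone among the genes described, a CD200-high library (3.93 log2 CPM) lay above an arterial library (3.63). It was at 3.93, 2.05 and 3.57 log2 CPM in CD200-high, had 0, 0 and 50 reads in type H, was at 3.63, 5.34 and 4.57 log2 CPM in arterial libraries, and at 0.51, 2.16 and 2.54 in those labelled sinusoidal. CD200-high and arterial libraries overlapped, and 2 of the 3 type H libraries had no read. Cd163 was higher in CD200-high cells than in type H by 6.10 ± 1.63 (adjusted p = 0.029, limma) and lower in type H than arterial libraries by -7.43 ± 1.63 (0.00748), while CD200-high minus arterial was -1.33 ± 1.63 (95% interval -5.09 to 2.42, adjusted p = 0.647). The first of these ended in 5 of 21 alternatives (0.000548 to 0.158), among them without type H replicate 1 (0.0957) or replicate 2 (0.0836) and without CD200-high replicate 1 (0.0834) or replicate 3 (0.0679). Type H minus sinusoidal missed the threshold (-4.65 ± 1.63, adjusted p = 0.0515) and passed with the mouse number as a block (0.0451) and without type H replicate 3 (0.000747; range 2.54e-05 to 0.171). CD200-high minus sinusoidal was 1.44 ± 1.63 (adjusted p = 0.545), and -3.57 (0.0487) on the endothelial scale. That scale moves every gene in this comparison by -5.02, and 84.9% of all tested genes were lower on it.

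Cd68, the lysosomal glycoprotein, was at 1.35, -2.53 and 3.64 log2 CPM in CD200-high cells, 2.77, 3.34 and 3.69 in type H cells, 6.0, 7.15 and 6.61 in arterial, and 4.42, 4.59 and 4.0 in libraries labelled sinusoidal. CD200-high replicate 2, with 2 reads, was again the lowest library, and the arterial libraries overlapped no others. Cd68 was lower in CD200-high than arterial libraries by -5.77 ± 1.15 (adjusted p = 0.00724, limma), a call kept in all 21 alternatives; without CD200-high replicate 2 the difference was -4.09 (0.0034). It was lower in CD200-high than in libraries labelled sinusoidal by -3.51 ± 1.15 (0.0388), and 10 of 21 alternatives ended that call (6.11e-06 to 0.125), among them leaving out CD200-high replicate 2, which gave -1.84 (0.0563), CD200-high replicate 1 (0.0598), any arterial library (0.0527 to 0.055) or any library labelled sinusoidal (0.0766 to 0.101). Type H minus arterial, at -3.32 ± 1.15, missed the threshold (0.0617) and passed without CD200-high replicate 2 (0.00226) or 3 (0.016; range 0.000939 to 0.161). Without CD200-high replicate 3, CD200-high was also called lower than type H (0.0197; range 0.0197 to 0.491), and without CD200-high replicate 2, arterial was called higher than the libraries labelled sinusoidal (0.0297; range 0.00437 to 0.502; the difference with all libraries is 2.25 as deposited and -1.31 on the endothelial scale). The log2 ratio of Cd68 to Csf1r was -4.07 ± 2.85 in CD200-high cells, -1.18 ± 1.17 in type H cells, 0.44 ± 0.56 in arterial and -0.65 ± 0.34 in libraries labelled sinusoidal.

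Ptprc, the gene of the antigen that the gates excluded, was read in every library. Its level was 5.48, 4.69 and 5.98 log2 CPM in CD200-high cells, 3.75, 3.55 and 4.62 in type H cells, 7.44, 7.17 and 7.63 in arterial, and 6.86, 6.25 and 6.53 in libraries labelled sinusoidal. No 2 populations overlapped, and the order from high to low was arterial, sinusoidal by label, CD200-high and type H. Ptprc was lower than in arterial libraries by -2.03 ± 0.36 in CD200-high (adjusted p = 0.00419) and by -3.44 ± 0.36 in type H (9.26e-05, limma), and both calls held in all 21 alternatives. It was lower than in libraries labelled sinusoidal by -1.16 ± 0.36 in CD200-high (0.0334) and by -2.57 ± 0.36 in type H (0.000263). Between CD200-high and type H it was higher in CD200-high by 1.41 ± 0.36 (0.0252). Arterial minus sinusoidal, the first neighbours in the order, was 0.87 ± 0.36 (adjusted p = 0.177), and -2.69 (0.000206) on the endothelial scale. That scale moves every gene in this comparison by -3.56, and 71.1% of all tested genes were lower on it. The call between CD200-high and type H ended in 7 of 21 alternatives (0.00822 to 0.152), among them without CD200-high replicate 1 (0.0668) or 3 (0.0762) or type H replicate 1 (0.0784) or 2 (0.075). That between CD200-high and the libraries labelled sinusoidal ended in 6 (5.27e-08 to 0.117), among them without CD200-high replicate 1 (0.059) or 2 (0.109) or sinusoidal replicate 1 (0.117) or 3 (0.0794).

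Counted by comparison, the genes were mainly lower in CD200-high and in type H than arterial libraries. Of the 9, 5 were lower in CD200-high than arterial libraries (C1qb, C1qc, Cd68, Vsig4 and Ptprc), where 8.15% of all tested genes were lower, and 0 were higher, where 4.75% were. Likewise 5 were lower in type H than arterial libraries (C1qa, C1qb, Vsig4, Cd163 and Ptprc), against 12.7% of all genes, and 0 were higher, against 7.96%. Their median difference was -4.20 for CD200-high minus arterial, against -0.22 over all tested genes, and -4.29 for type H minus arterial, against -0.20. All of these comparisons share libraries and are given side by side. Leaving out 1 library at a time gave 3 to 6 lower for CD200-high minus arterial and 5 to 7 for type H minus arterial.

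Between CD200-high and type H, 3 genes were higher in CD200-high (C1qa, Cd163 and Ptprc), against 6.66% of all tested genes, and 0 were lower, against 6.35%. The median difference was -0.05 for the 9 genes and -0.05 for all genes, and leaving out 1 library at a time gave 0 to 3 higher. Against the libraries labelled sinusoidal, 2 genes were lower in CD200-high (Cd68 and Ptprc), where 14.6% of all genes were lower and 14.1% higher with 0 of the 9, and 2 were lower in type H (C1qa and Ptprc), where 14.6% of all genes were lower and 13.9% higher, again with 0 of the 9. In arterial minus sinusoidal 1 gene was higher (C1qb), against 8.09% of all genes, and 0 were lower, against 2.14%; on the endothelial scale 0 were higher and 2 were lower, where 1.27% of all genes were higher and 71.1% lower. As deposited, the median difference in arterial minus sinusoidal was 2.77, against -0.02 over all genes. It was -0.79 on the endothelial scale, which moves every gene in this comparison by -3.56.

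**Figure D3:**
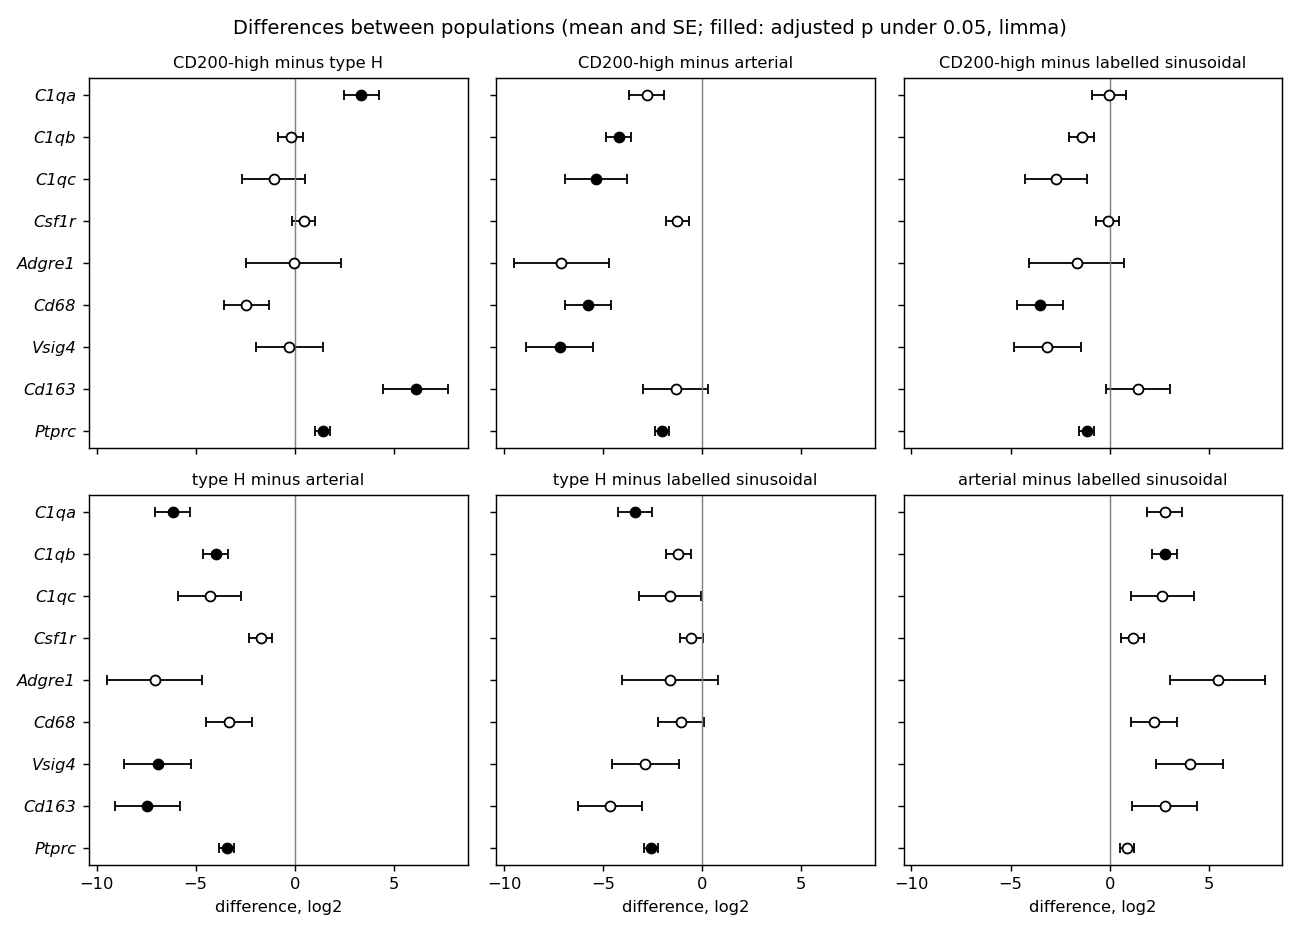
Log2 difference of each gene in the 6 comparisons (horizontal axis, first population minus the second); points are estimates, bars are SE, and filled points passed an adjusted p of 0.05. All 9 estimates are below 0 for CD200-high minus arterial and for type H minus arterial, and above 0 for arterial minus sinusoidal as deposited, where 7 of the 9 turn below 0 on the endothelial scale. That scale moves every gene in arterial minus sinusoidal by -3.56.

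Other macrophage markers were counted on a list of 21 tested genes that holds none of the 9. Of these, 14 had their 3 arterial values above all 9 other libraries as deposited, against 4.28% of all genes, and 1 on the endothelial scale, against 0.995%. By test, 9 of 21 were lower in CD200-high than arterial libraries and 0 higher (median -2.88), and 9 were lower and 2 higher in type H than arterial libraries (median -3.21). Of all tested genes, 8.15% were lower and 4.75% higher in CD200-high minus arterial, and 12.7% lower and 7.96% higher in type H minus arterial. The same shares stand beside the list counts against arterial libraries below, as deposited. Tyrobp, the adaptor of activating myeloid receptors, averaged 7.39 ± 0.36 log2 CPM in CD200-high cells, 6.93 ± 0.44 in type H cells, 9.37 ± 0.28 in arterial and 7.49 ± 0.49 in libraries labelled sinusoidal (SD, n = 3 each). Clec12a, an inhibitory C-type lectin of myeloid cells, was lower than in arterial libraries by -2.33 ± 0.28 in CD200-high (adjusted p = 0.000501) and by -2.78 ± 0.28 in type H (6.48e-05, limma).

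The 2 list genes that went the other way were Mrc1 and Lgmn. Mrc1, the mannose receptor, which sinusoidal and lymphatic endothelium also carries, averaged 3.94 ± 1.19 log2 CPM in CD200-high cells, 8.71 ± 0.37 in type H cells, 5.05 ± 0.88 in arterial and 2.61 ± 0.53 in libraries labelled sinusoidal. It was higher in type H than arterial libraries by 3.66 ± 0.59 (adjusted p = 0.00118, limma). Lgmn, a lysosomal protease, was higher in type H than arterial libraries by 3.5 ± 0.26 (1.07e-05), and both are higher on the endothelial scale too. Arterial minus sinusoidal gave 7 of 21 higher and 0 lower as deposited, but 0 higher and 8 lower on the endothelial scale. Of all tested genes, 8.09% were higher and 2.14% lower in this comparison as deposited. On the endothelial scale 1.27% were higher and 71.1% lower. Folr2, a folate receptor of resident macrophages named after its values were seen, had no read in the 3 libraries labelled sinusoidal.

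Ligands of CSF1R and macrophage transcription factors, 14 genes, did not move as one group. In CD200-high minus arterial 1 was higher and 5 lower, and in type H minus arterial 3 were higher and 4 lower. In CD200-high minus type H 0 were higher and 7 lower (median -2.81), where 6.66% of all tested genes were higher and 6.35% lower. Csf1 and Il34, the 2 ligands, were both among the 4 genes of the list whose arterial values lay above all other libraries as deposited, with Csf2ra and Spi1, the gene of PU.1. These 4 are named for that and not by the rule for the list. Of all tested genes, 4.28% had such arterial values. On the endothelial scale 1 of the 14 had them, against 0.995% of all genes. Irf8, a factor of monocytes, dendritic cells and B cells, was lower in CD200-high than in type H (-2.99 ± 0.26, adjusted p = 2.65e-05, limma) and than in arterial libraries (-2.20 ± 0.26, 0.00052). Pparg, a nuclear receptor of lipid metabolism, was higher in type H than arterial libraries by 4.15 ± 0.86 (0.00541). Csf2rb, the shared receptor chain for GM-CSF, IL-3 and IL-5, was higher in type H than arterial libraries by 1.40 ± 0.24 (0.00171) as deposited and lower, by -0.81, on the endothelial scale.

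Complement genes other than C1q, 18 in all, showed 8 lower and 1 higher in CD200-high than arterial libraries (median -2.63) and 6 lower and 1 higher in type H than arterial libraries (median -2.41). Serping1, the C1 inhibitor that blocks the proteases bound to C1q, averaged 5.94 ± 0.95 log2 CPM in CD200-high cells, 6.72 ± 0.62 in type H cells, 9.49 ± 0.50 in arterial and 5.31 ± 0.42 in libraries labelled sinusoidal. It was lower in CD200-high than arterial libraries by -3.56 ± 0.46 (adjusted p = 0.000799, limma), and C1ra, C1rb and C1s1, which encode those proteases, were with it among the 7 list genes whose arterial values lay above all others as deposited (1 on the endothelial scale). Of all tested genes, 4.28% had such arterial values as deposited and 0.995% on the endothelial scale. The 3 protease genes were named after their values were seen. Cd59a, a membrane inhibitor of the terminal complex, was higher in CD200-high than arterial libraries by 2.06 ± 0.23 (0.000386). C5ar1, the receptor for C5a, was lower in CD200-high than arterial libraries by -2.55 ± 0.37 (0.0013), while type H minus arterial was -0.06 ± 0.37 (0.94), both as deposited. The endothelial scale moves these differences by -1.46 and -2.21, so that C5ar1 lies below arterial in type H too on that scale.

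Genes for the uptake of dying cells, 15 in all, divided otherwise. In CD200-high 1 was higher and 2 lower than in arterial libraries (median 0.40 as deposited, -1.06 on the endothelial scale), and in type H 6 were higher and 3 lower than in arterial libraries (median 0.81), although this median is -1.41 on the endothelial scale, with 2 higher and 8 lower. Of all tested genes, 1.18% were higher and 67% lower in type H minus arterial on the endothelial scale. Stab1, a scavenger receptor shared by macrophages and sinusoidal endothelium, averaged 5.41 ± 0.29 log2 CPM in CD200-high cells, 8.36 ± 0.15 in type H cells, 3.57 ± 0.72 in arterial and 0.40 ± 1.03 in libraries labelled sinusoidal. Scarf1, a receptor for C1q-coated dying cells that endothelium also carries, was higher in type H than arterial libraries by 3.12 ± 0.42 (adjusted p = 0.00038, limma). Genes of iron and haem handling, 10 in all, were lower in CD200-high than arterial libraries in 6 cases and higher in 0, and lower in type H in 3 and higher in 0. Slc40a1, the iron exporter ferroportin, averaged 5.76 ± 0.34 log2 CPM in CD200-high cells, 6.49 ± 0.16 in type H cells, 8.50 ± 0.66 in arterial and 5.60 ± 0.69 in libraries labelled sinusoidal, and was lower than in arterial libraries by -2.73 ± 0.38 in CD200-high (0.000998) and by -2.01 ± 0.38 in type H (0.00298). Hmox1, which opens the haem ring, was lower in CD200-high than arterial libraries by -2.80 ± 0.45 (0.00227).

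Lists of neutrophil, erythroid and monocyte genes took, like C1q, their highest shares of reads in the arterial libraries as deposited. The pan-leukocyte list was highest in libraries labelled sinusoidal. Summed over a list of 18 pan-leukocyte genes, all of which had reads in every population, the share of reads was 0.0576 to 0.110% in CD200-high cells, 0.0728 to 0.117% in type H cells, 0.470 to 0.564% in arterial and 0.700 to 0.726% in libraries labelled sinusoidal. Of these genes, 14 were lower in CD200-high and 17 lower in type H than arterial libraries, with 0 higher in either. The 12 neutrophil genes took 0.611 to 1.08% of the reads in CD200-high cells, 0.463 to 0.799% in type H cells, 2.31 to 3.5% in arterial and 0.702 to 1.21% in libraries labelled sinusoidal, and 11 of them were above all other libraries in the 3 arterial ones as deposited, against 4.28% of all genes (0 on the endothelial scale). The 12 erythroid genes took 0.217 to 0.378% in CD200-high cells, 0.360 to 0.698% in type H cells, 1.12 to 2.29% in arterial and 0.386 to 0.698% in libraries labelled sinusoidal. For the 10 monocyte genes the shares were 0.0725 to 0.121% in CD200-high cells, 0.0437 to 0.0899% in type H cells, 0.306 to 0.397% in arterial and 0.108 to 0.156% in libraries labelled sinusoidal. For the tissue macrophage list they were 0.187 to 0.358% in CD200-high cells, 0.268 to 0.371% in type H cells, 0.846 to 1.23% in arterial and 0.289 to 0.408% in libraries labelled sinusoidal. By test against arterial libraries, the neutrophil list had 0 higher and 11 lower in CD200-high (median -1.92) and 0 higher and 11 lower in type H (median -2.18). The erythroid list had 0 higher and 9 lower in CD200-high and 1 higher and 6 lower in type H, and the monocyte list 0 higher and 6 lower in CD200-high and 0 higher and 8 lower in type H. The part of these cells in the levels of the 9 genes was not tested.

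B cell and megakaryocyte genes had another order. The 12 B cell genes took 0.0225 to 0.0354% of the reads in CD200-high cells, 0.0141 to 0.0233% in type H cells, 0.188 to 0.487% in arterial and 1.26 to 1.42% in libraries labelled sinusoidal, and the 9 megakaryocyte genes 0.00135 to 0.00989% in CD200-high cells, 0.00379 to 0.00735% in type H cells, 0.0513 to 0.178% in arterial and 0.339 to 0.462% in libraries labelled sinusoidal. None of either list had its arterial values above all other libraries as deposited, against 4.28% of all genes. Against arterial libraries, 10 of 12 B cell genes were lower in CD200-high and 10 in type H, as were 7 of 9 megakaryocyte genes in CD200-high and 8 in type H, with 0 higher. Of the B cell list, 5 of 12 genes were lower in arterial libraries than in those labelled sinusoidal and 0 higher, where C1qb was higher as deposited and lower on the endothelial scale. Of all tested genes, 2.14% were lower and 8.09% higher in that comparison as deposited. The 7 T and NK cell genes took 0.000253 to 0.00277% in CD200-high cells, 0.000257 to 0.00264% in type H cells, 0.00902 to 0.0157% in arterial and 0.00465 to 0.00641% in libraries labelled sinusoidal, and against arterial 2 were lower in CD200-high and 3 in type H. The 12 dendritic cell genes took 0.0112 to 0.0195% in CD200-high cells, 0.0331 to 0.0484% in type H cells, 0.0188 to 0.023% in arterial and 0.0241 to 0.0374% in libraries labelled sinusoidal, and against arterial 1 was lower in CD200-high, while 2 were higher and 2 lower in type H. Defining markers without a read in all 3 libraries, named after their values were seen, were Klrb1c and Ncr1 of the T and NK list in CD200-high and in type H, Trac in the libraries labelled sinusoidal, Rag1 in CD200-high, and Flt3, Xcr1, Itgae and Clec10a of the dendritic list in CD200-high, with Itgae also in type H. Dcstamp of the osteoclast list had none in CD200-high and Ocstamp none in type H. The osteoclast list took 0.0381 to 0.0598% in CD200-high cells, 0.0118 to 0.0212% in type H cells, 0.0618 to 0.101% in arterial and 0.0822 to 0.104% in libraries labelled sinusoidal, with 1 of 9 lower in CD200-high and 4 lower in type H than in arterial. Genes of reticular stroma and bone took 9.68 to 13.5% in CD200-high cells, 0.497 to 0.770% in type H cells, 2.05 to 2.65% in arterial and 0.780 to 1.62% in libraries labelled sinusoidal, and of these 14 genes 4 were higher and 3 lower in CD200-high and 13 lower in type H than in arterial. Of the 16 endothelial genes, 8 were higher and 0 lower in CD200-high and 12 higher and 1 lower in type H than in arterial libraries as deposited.

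**Figure D4:**
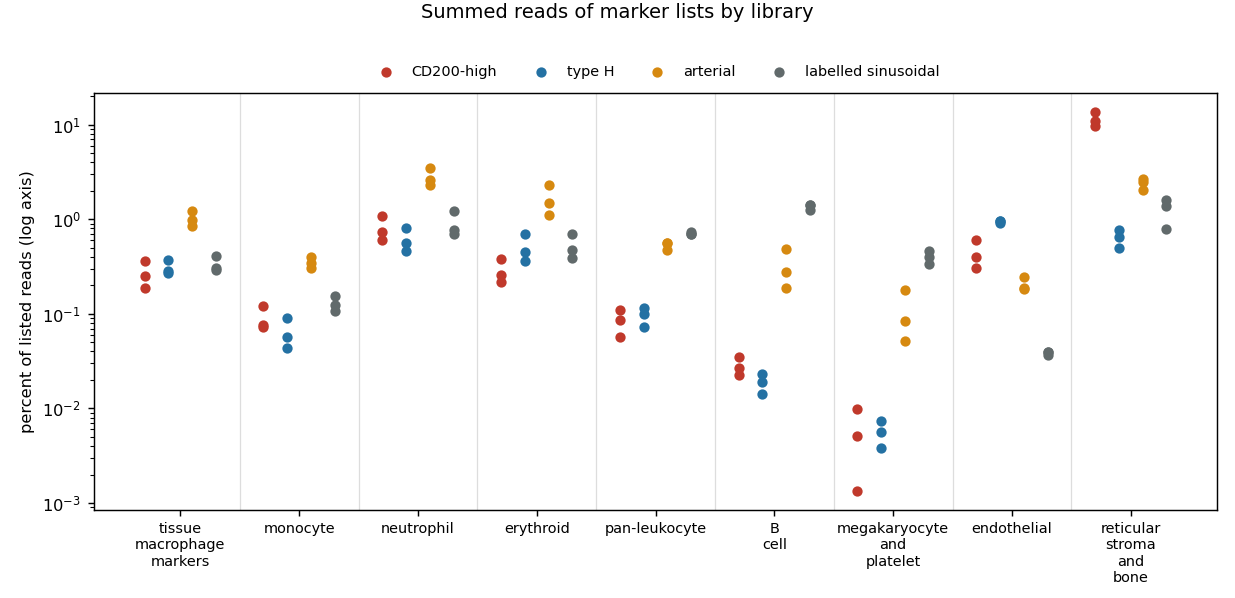
Share of listed reads (percent, log axis) taken by each of 9 marker lists in each library, coloured by population. Macrophage, monocyte, neutrophil and erythroid lists are highest in the arterial libraries, and pan-leukocyte, B cell and megakaryocyte lists in those labelled sinusoidal; these are shares as deposited, and none of the neutrophil or erythroid genes tops the other libraries in arterial on the endothelial scale.

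Genes through which CD45 acts were set beside Ptprc. Of 14 genes of CD45 substrates and signalling, 9 were lower and 0 higher in CD200-high than arterial libraries, and 5 were lower and 1 higher in type H. Lck, a kinase that CD45 activates in T cells, had no read in the 3 CD200-high libraries and averaged 5.52 ± 0.57 log2 CPM in type H cells, 4.15 ± 0.21 in arterial and 5.11 ± 0.44 in libraries labelled sinusoidal. Syk, a kinase downstream of Fc receptors and B cell receptors, was lower in CD200-high than arterial libraries by -3.03 ± 0.29 (adjusted p = 0.000197, limma) and lower in arterial libraries than in those labelled sinusoidal by -1.14 ± 0.29 (0.0297). The log2 ratio of C1qb to Ptprc was -1.12 ± 1.30 in CD200-high cells, 0.49 ± 0.49 in type H cells, 1.04 ± 0.62 in arterial and -0.87 ± 0.65 in libraries labelled sinusoidal. That of Csf1r to Ptprc was -0.50 ± 0.52 in CD200-high cells, 0.47 ± 1.56 in type H cells, -1.27 ± 0.33 in arterial and -1.56 ± 0.26 in libraries labelled sinusoidal. Differences in these ratios were not tested.

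**Figure D5:**
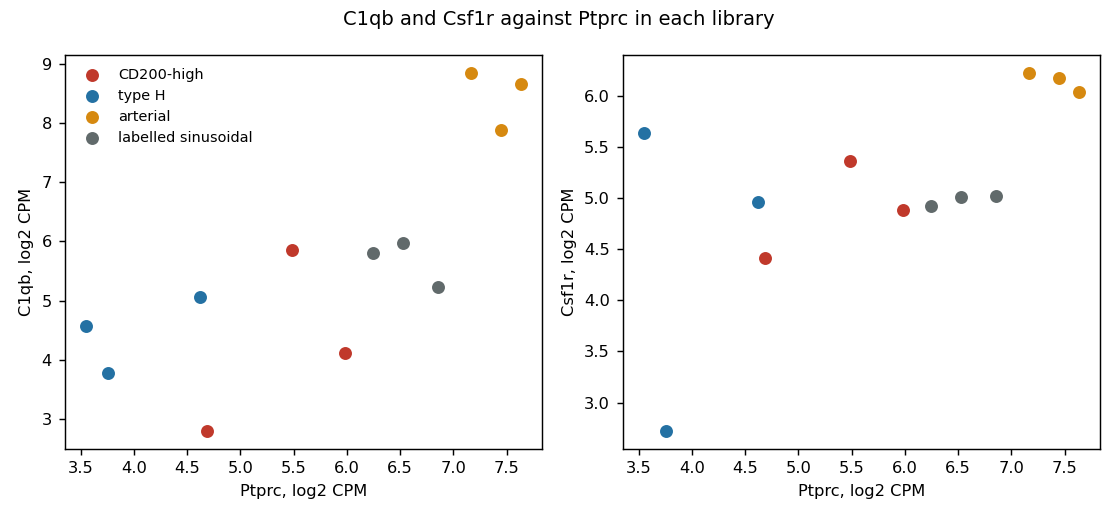
Level of C1qb (left) and Csf1r (right) against the level of Ptprc, both in log2 CPM, with 1 point per library coloured by population. The libraries labelled sinusoidal have Ptprc of 6.25 to 6.86 with C1qb of 5.23 to 5.97, while the arterial libraries have Ptprc of 7.17 to 7.63 with C1qb of 7.88 to 8.85, as deposited.

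Genes with the pattern most like C1q were sought among those with at least 100 scaled reads in their highest population, by the root mean square difference of log2 values centred over the 12 libraries. The 8 nearest to the mean of C1qa, C1qb and C1qc were Gm36161 at 0.853, Gm21188, Gm36551, Plbd1, Ccr2, Nfam1, Pilrb1 and Ncf1 at 0.975. Plbd1 is a phospholipase B-like protein of granulocytes, Ccr2 the chemokine receptor of inflammatory monocytes and Ncf1 a subunit of the phagocyte oxidase. Nfam1 averaged 6.21 ± 0.73 log2 CPM in CD200-high cells, 5.41 ± 0.43 in type H cells, 8.83 ± 0.22 in arterial and 6.74 ± 0.53 in libraries labelled sinusoidal. Of the genes described here, C1qb itself lay at 0.667 from that mean. C1qa at 1.17 and C1qc at 1.16 were both farther from it than the 8 nearest genes. Each chain is itself part of that mean. The distances include CD200-high replicate 2, where C1qc had 2 reads. They also include type H replicates 1 and 2, where C1qa had 18 and 9 reads. Ptprc lay at 1.15, Cd68 at 1.35, Csf1r at 1.57 and Vsig4, Cd163 and Adgre1 at 2.34 to 2.58. The 5 nearest to Csf1r were Malt1 at 0.438, Thap11, Mapk9, Lilrb4a and Poli at 0.509, and the 5 nearest to Ptprc were Evi2b at 0.351, Gm30489, Evi2, F13a1 and Cd44 at 0.462. Evi2 and Evi2b overlap, so their reads may be shared. These distances describe 12 libraries of 4 groups and carry no test.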

How the data were processed

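RNA from 4 sorted marrow populations, 3 libraries each, had been made into cDNA with an ultra-low-input kit and sequenced by the authors. Per the submitters' processing notes, the tools were Trimmomatic, STAR, SAMtools, featureCounts, deepTools and R 4.3; the notes name a human build for these mouse samples, so no coordinate rests on it. The authors deposited 1 table of log2 CPM values for 17362 genes; per the file's values each is the log2 of reads plus 0.5, per 1000000 reads of an effective library size, and whole reads came back for 100% of values in every library within a tolerance of 0.01. Floors cover counting error only; the 95% intervals come from the spread between libraries.

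A gene was kept where 3 or more libraries reached 10 reads at the mean effective size (0.63 CPM), leaving 17086 and removing 276; all 9 genes described passed. Log2 values were fitted with limma 3.58.1 in R 4.3.3 (mean-variance trend, group means, all 12 libraries in 1 fit), with Benjamini-Hochberg adjustment over all genes tested, and the code was checked on simulated data. Figures used matplotlib 3.10.9. The 9 genes and the 17 lists beside them were chosen with earlier results of these data known. Genes named from the lists are up to 4 per list with the smallest F-test p, some of which are not reported here; Folr2, Csf1, Il34, Csf2ra, Spi1, C1ra, C1rb, C1s1 and the markers without a read were named after their values were seen; the nearest profiles follow the distance given with them. Descriptions in the labels number the mice alike in all populations; same-numbered libraries' deviations from their group means correlated by -0.044 to 0.112 (18 pairs, 9846 genes), and the fit with the mouse number as a replicate block is given where it changes a call. Alternatives were other filters, a pseudocount of 1 CPM, 2 other scalings, no trend, voom weights, pairwise fits, the block, and leaving out each library. The coding neighbours of the C1q genes are not analysed here.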

Additional observations from a re-analysis of the deposited data

How the results depend on the processing

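Over 21 alternative settings and 54 differences, 980 of 1134 values kept their direction and side of the threshold, 52 lost the threshold, 79 gained it and 23 reversed. With a pseudocount of 1 CPM, type H minus arterial gave 9 of the 9 genes lower and arterial minus sinusoidal 4 higher. On the endothelial scale the counts were 8 lower for CD200-high minus arterial and 9 lower for each of CD200-high minus sinusoidal, type H minus arterial and type H minus sinusoidal, with 0 higher and 2 lower for arterial minus sinusoidal. On that scale 42.9% of all tested genes were lower in CD200-high minus arterial and 84.9% in CD200-high minus sinusoidal. The share lower was 67% in type H minus arterial, 90% in type H minus sinusoidal and 71.1% in arterial minus sinusoidal. Shares of all genes higher or lower at the other settings are not given here. Voom weights gave 1 higher for CD200-high minus type H, 9 lower for type H minus arterial, 1 lower for type H minus sinusoidal and 5 higher for arterial minus sinusoidal. Fitting only the populations compared gave 0 higher for CD200-high minus type H, 0 lower for CD200-high minus sinusoidal, 1 lower for type H minus sinusoidal and 7 higher for arterial minus sinusoidal, and without the trend 0 were lower for CD200-high minus sinusoidal. The cause of these changes was not tested. The replicate block gave 6 lower for type H minus arterial, 3 lower for type H minus sinusoidal and 7 by the F-test, and beyond the 4 calls given with their genes it changed no call of a pairwise difference. Leaving out 1 library at a time gave 0 to 3 higher and 0 to 1 lower for CD200-high minus type H, 3 to 6 lower for CD200-high minus arterial, 0 to 2 lower for CD200-high minus sinusoidal, 5 to 7 lower for type H minus arterial, 2 to 3 lower for type H minus sinusoidal, 0 to 3 higher for arterial minus sinusoidal, and 5 to 8 by the F-test.

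Reversed values on the endothelial scale were 0.54 for C1qb, 0.70 for Adgre1 and 0.48 for Vsig4 in CD200-high minus type H, -3.57 for Cd163 in CD200-high minus sinusoidal, and, in arterial minus sinusoidal, -0.79 for C1qa, -0.77 for C1qb, -0.90 for C1qc, -2.39 for Csf1r, -1.31 for Cd68, -0.78 for Cd163 and -2.69 for Ptprc. Leaving out 1 library at a time also turned some differences that were not called. In CD200-high minus type H, the range was -1.93 to 2.46 for Adgre1 (above 0 at 0.79 and 1.0 without CD200-high replicates 1 and 2, and at the upper end without type H replicate 3), -1.01 to 0.52 for C1qb (upper end without CD200-high replicate 2, and 0.08 with type H replicate 3 left out), -2.49 to 1.5 for C1qc (upper end without CD200-high replicate 2), -0.41 to 1.04 for Csf1r and -0.82 to 0.71 for Vsig4 (turned without type H replicate 1 in both). In CD200-high minus sinusoidal it was -0.37 to 0.53 for C1qa (above 0 also at 0.11 without sinusoidal replicate 1) and -0.33 to 0.14 for Csf1r, both turned without CD200-high replicate 2. In type H minus sinusoidal it was -1.14 to 0.32 for Csf1r, turned without type H replicate 1.

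Over all genes, the endothelial scale gave 7435 calls for CD200-high minus arterial (2204 as deposited), 14648 for CD200-high minus sinusoidal (4902), 11650 for type H minus arterial (3536), 15507 for type H minus sinusoidal (4882) and 12361 for arterial minus sinusoidal (1748). Fitting only the populations compared gave 1337 calls for CD200-high minus type H, against 2223, and 2829 for arterial minus sinusoidal. Leaving out 1 library gave as few as 1353 for CD200-high minus arterial and 1019 for arterial minus sinusoidal.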
